A study of Homo sapiens with 15 samples.

Results

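The genes described here encode the semaphorins and their receptors the plexins and neuropilins, the ephrins and their Eph receptors, and the SLIT, ROBO, netrin and UNC5 proteins. They were chosen by gene symbol alone, and 46 of the 17272 genes in the expression table belonged to these families. Polyadenylated RNA was sequenced in 15 libraries of LNCaP, an established line of human prostate cancer cells that responds to androgen. All cells were kept for 2 days in medium with charcoal-stripped serum, which lacks most steroids, and collected 22 h after treatment. In 10 libraries the cells had received 1 nM R1881, a synthetic androgen, with the solvent DMSO. In the other 5 they had received 1 nM R1881 and 2 µM enzalutamide, a drug that blocks the androgen receptor, so both groups carried the androgen and no group without androgen is described. LNCaP is a single line. The study's methods call the libraries biological replicates, while the labels number them and name no cultures, so the p-values measure the spread between these libraries. The comparison asks which guidance genes had a different RNA level when the androgen receptor was blocked.

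Guidance genes were named for steering growing axons, but they also act at contacts between epithelial, vascular and tumour cells. Semaphorins bind plexins, with neuropilin as a co-receptor for the secreted class 3 semaphorins, ephrins bind Eph receptor tyrosine kinases on the neighbouring cell, SLIT proteins bind ROBO receptors, and netrins bind DCC and UNC5 receptors. All of these receptors act on small GTPases and the actin cytoskeleton, and can attract cells, repel them or keep cell populations apart.

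Of 68 genes of these families in the GENCODE annotation, 22 had no row and were not analysed here. They were SEMA3A, SEMA3D, SEMA3E, SEMA5B, SEMA6B, PLXNA4, PLXNC1, NRP2, EPHA4, EPHA8, EPHB1, EFNA2, ROBO2, ROBO4, SLIT2, SLIT3, NTN1, NTN3, NTN5, UNC5A, UNC5C and UNC5D. The table thus held 15 semaphorins, 7 plexins, 1 neuropilin, 11 Eph receptors, 7 ephrins, 2 ROBO genes, 1 SLIT gene, 1 netrin and 1 UNC5 gene. All members except SEMA5A had a mean of at least 0.5 CPM over the 15 libraries, the minimum for testing. PLXNA2 and SEMA6D reached it only through the enzalutamide libraries, so they could be tested only because they were higher there.

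The libraries held 15830745 to 24316740 reads with R1881 and 21188661 to 25416052 reads with R1881 + enzalutamide. The androgen-induced genes KLK2, KLK3, FKBP5 and TMPRSS2 checked the treatment, and none of them overlapped between the groups. With enzalutamide the median CPM fell by 96.6% for KLK2, fell by 91.4% for KLK3, fell by 96.9% for FKBP5 and fell by 91.5% for TMPRSS2. All 7 luminal prostate markers had a row, and their summed level was 6719 to 7742 CPM with R1881 and 3585 to 3708 CPM with enzalutamide. Of 16 markers of other cell types, 6 had a row, among them none of 3 leukocyte genes. The summed level of these markers was 40.7 to 50.1 CPM with R1881 and 80.1 to 88.3 CPM with enzalutamide. Most of that sum was ENO2, a neuronal and neuroendocrine enzyme, with means of 32.2 and 57.0 CPM, whereas the neuroendocrine SYP fell from 1.60 to 1.05 CPM and the basal keratin KRT14 from 1.02 to 0.10 CPM. The fibroblast markers, with COL1A1 and COL3A1 in the table, were at 6.12 to 10.3 CPM and 19.8 to 25.1 CPM. The part of these shifts in the results below was not tested, and in bulk RNA fewer cells of a type and less RNA per cell cannot be told apart. One further library property bears on the members. The level of GC-rich relative to GC-poor genes was taken as a difference of median log2(CPM + 0.5), upper minus lower quartile of transcript GC content. It was -0.64 in R1881 replicate 6 and -0.93 in R1881 replicate 5, against -1.51 to -1.14 in the other R1881 libraries. With enzalutamide it was -0.89 in replicate 2 and -1.46 to -1.23 in the others.

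With enzalutamide, 10 of the 45 tested guidance genes were lower, 20 were higher and 15 did not pass the test (limma, adjusted p under 0.05). Of all 17046 genes tested, 62.5% were called, 32.7% lower and 29.8% higher, so most of the transcriptome moved with this treatment. Among the guidance genes 22.2% were lower and 44.4% higher. The higher genes include PLXNA2 and SEMA6D, which could be tested only because they were higher with enzalutamide. Their calls do not bear on the direction of the members or of their families. SEMA6D also counts below among the 2-fold and the not overlapping genes. With the library totals set to 1000000, 4288 of all genes were lower and 6629 higher, in place of 5577 and 5083, and the guidance genes then stood at 10 lower and 25 higher. The median log2 fold change was 0.18 over the guidance genes and -0.01 over all genes tested. A change of at least 2-fold was called for 5 members, EPHA5 lower and SLIT1, SEMA6D, SEMA6A and EFNB3 higher, and for 7.45% of all genes (4.19% lower, 3.26% higher). This count depends on the pseudocount and the test. At a pseudocount of 0.1 it was 7 members, with EPHA2 and NTN4 added (9.16% of all genes), and at a pseudocount of 1 it was 3, without SEMA6D and EFNB3 (6.16%). With edgeR and DESeq2 on the recovered reads it was 8 in each, with EPHA2, NTN4 and PLXNA2 added (9.81% and 9.70%). Values of the 2 treatments had no overlap in 18 of the 45 members (40.0%), 5 lower and 13 higher. Over all genes tested this share was 37.2% (20.1% lower, 17.1% higher). By family, 7 of 14 tested semaphorins rose and 2 fell, 3 of 7 ephrins rose and 2 fell, and 5 of 11 Eph receptors rose and 3 fell. Of the 7 plexins 2 fell and 1 rose, NRP1 fell, and both ROBO genes, SLIT1 and NTN4 rose.

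**Figure D1:**
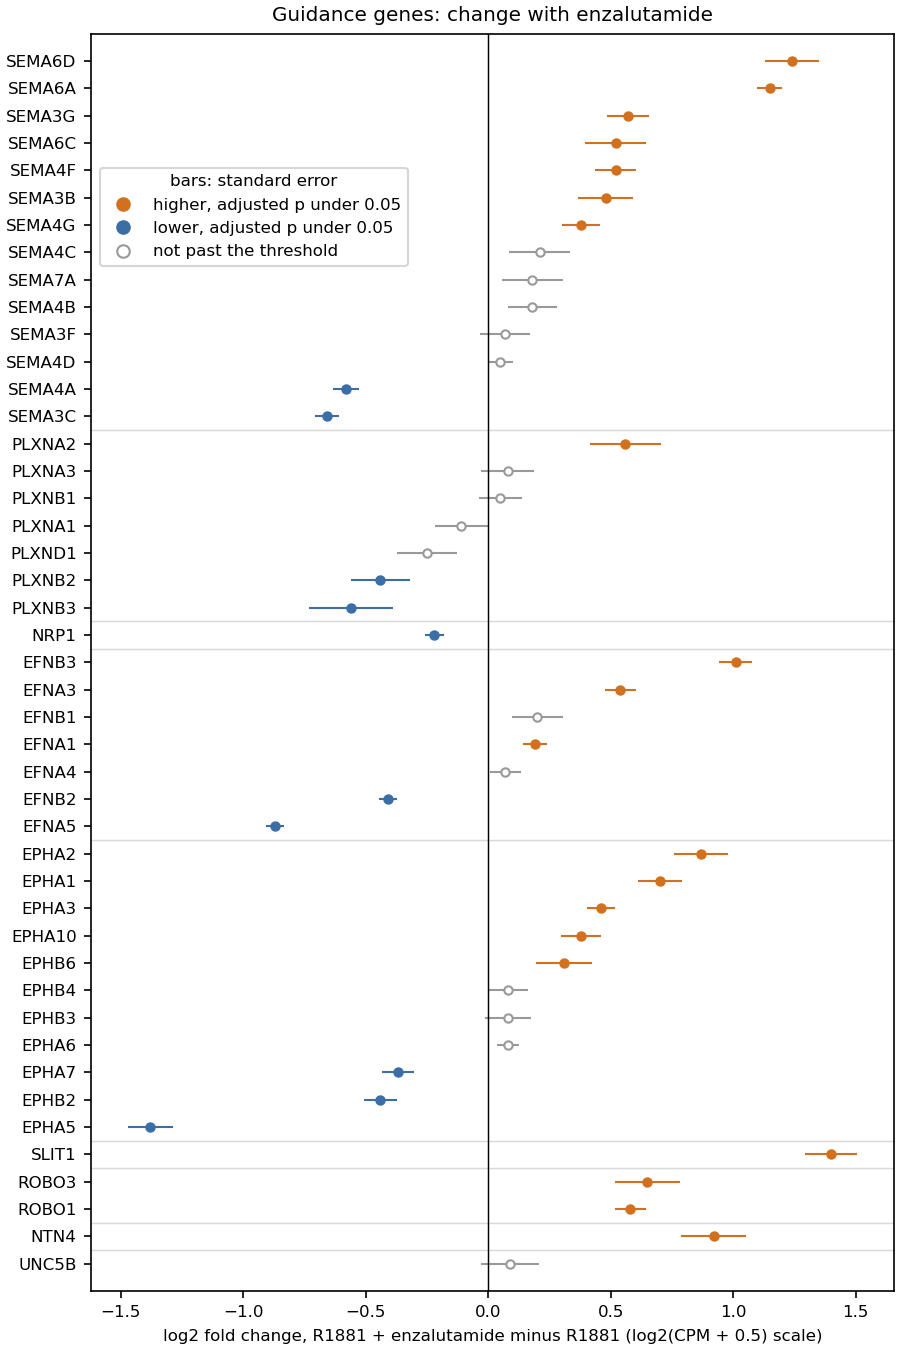
Log2 fold change of each of the 45 tested guidance genes (R1881 + enzalutamide minus R1881, log2(CPM + 0.5) scale), grouped by family, with the standard error as a bar. Orange points passed the test as higher (20 genes), blue points as lower (10 genes) and open points did not pass (15 genes), and the range runs from -1.38 for EPHA5 to 1.40 for SLIT1.

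The start regions of 4 of these genes are shown because they stand for the 2 directions of change and for both kinds of molecule: EFNA5 and SEMA3C are ligands whose RNA fell, and SLIT1 and its receptor ROBO1 rose. Each line gives the 250 bases before the RefSeq start on GRCh38.p14, 5′ to 3′ on the minus strand, on which all 4 genes lie. They cover chr5:107670938-107671187 (EFNA5), chr7:80922390-80922639 (SEMA3C), chr10:97185960-97186209 (SLIT1) and chr3:79767999-79768248 (ROBO1). Capitals mark the GC box GGGCGG, the core motif of Sp1-type factors, or its reverse complement CCGCCC.
EFNA5: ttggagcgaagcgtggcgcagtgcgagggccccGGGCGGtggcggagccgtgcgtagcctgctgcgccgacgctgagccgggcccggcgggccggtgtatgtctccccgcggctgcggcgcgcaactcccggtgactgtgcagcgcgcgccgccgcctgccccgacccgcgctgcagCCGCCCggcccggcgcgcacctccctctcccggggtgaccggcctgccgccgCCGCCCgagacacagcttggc
SEMA3C: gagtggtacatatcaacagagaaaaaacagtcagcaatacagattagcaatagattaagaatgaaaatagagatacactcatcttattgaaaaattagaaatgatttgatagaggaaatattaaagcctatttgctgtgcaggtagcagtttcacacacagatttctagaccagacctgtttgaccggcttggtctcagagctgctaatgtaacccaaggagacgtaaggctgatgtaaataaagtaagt
SLIT1: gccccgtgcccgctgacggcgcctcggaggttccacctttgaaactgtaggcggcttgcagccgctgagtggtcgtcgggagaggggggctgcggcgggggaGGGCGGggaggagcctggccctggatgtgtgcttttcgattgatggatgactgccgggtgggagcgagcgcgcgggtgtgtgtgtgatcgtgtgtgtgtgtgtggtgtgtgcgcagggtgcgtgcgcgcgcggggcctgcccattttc
ROBO1: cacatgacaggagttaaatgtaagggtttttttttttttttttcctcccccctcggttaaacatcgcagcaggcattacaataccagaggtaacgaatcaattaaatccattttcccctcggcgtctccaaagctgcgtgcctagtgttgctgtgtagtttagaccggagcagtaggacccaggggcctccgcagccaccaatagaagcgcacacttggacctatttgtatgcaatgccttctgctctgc
The EFNA5 sequence held 3 GC boxes and was 79.6% G or C, and that of SLIT1 held 1 and was 68.4% G or C. Those of SEMA3C (36.4% G or C) and ROBO1 (48%) held none. Among these 4, each direction of change thus had 1 sequence with the GC box and 1 without. Whether promoter sequence goes with the direction of change was not tested. A promoter entry was found for 41 of the 46 members, and EFNB3, EPHA10, NRP1, SEMA6A and UNC5B had none. The GC box was present on either strand in 33 of the 41 (80.5%), against 66.9% of 9968 promoters of genes in the table and 42.3% of all 27305 promoters. The median G or C content was 68% for promoters of members and 65.2% for promoters of genes in the table. The part of base composition in the GC box shares was not tested. The letters AGAACA, the half-site that androgen receptor elements share, or their reverse complement TGTTCT, were found in 1 of the 41, EPHB6, against 7.27% of the promoters of genes in the table and 12.4% of all promoters. These are matches of letters in a short window and do not show binding. The EPHB6 window, at chromosome 7, positions 142862506 to 142862755, lies inside the gene as GENCODE places it (142855061 to 142871094). The windows of some other members, such as SEMA4B, also lie inside the GENCODE gene.

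The ephrins changed in both directions, the 2 with the highest CPM falling and others rising. EFNA5, a membrane-anchored ligand of EphA receptors, lies at chromosome 5, positions 107376894 to 107670937 of GRCh38. It ranged from 324 to 379 CPM with R1881, with a median of 356 CPM. With enzalutamide EFNA5 measured 204, 186, 190, 196 and 199 CPM. Every enzalutamide library was thus well below every R1881 library. The mean of the 10 R1881 libraries was 356 ± 17.3 CPM (SD) and that of the 5 enzalutamide libraries 195 ± 7.06 CPM (SD), a log2 fold change of -0.87 (SE 0.0367, adjusted p = 1.60e-14, limma). EFNB2, a transmembrane ligand of EphB receptors and of EPHA4 that marks arterial endothelium, fell from 221 ± 11.4 to 166 ± 2.60 CPM (log2 fold change -0.41, adjusted p = 2.68e-09, limma), again without overlap.

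EFNB3, the third transmembrane ephrin, known from the midline of the spinal cord, moved the other way. It ranged from 8.10 to 10.3 CPM with R1881, with a median of 9.0 CPM. With enzalutamide EFNB3 measured 18.5, 20.0, 17.9, 18.8 and 18.3 CPM, so its level about doubled and the groups stood far apart (log2 fold change 1.01, SE 0.0665, adjusted p = 2.95e-11, limma). EFNA3, like EFNA5 a GPI-anchored ligand, ranged from 17.8 to 23.1 CPM with R1881, with a median of 20.2 CPM. With enzalutamide it measured 29.0, 32.4, 29.1, 26.3 and 29.6 CPM. All 5 were above the highest R1881 library, and the log2 fold change was 0.54 (SE 0.0615, adjusted p = 1.45e-07, limma). The annotation gives a read-through gene that joins EFNA4 and EFNA3, so reads of the shared exons could be split between them. EFNA1, a ligand of EPHA2, rose from 64.2 ± 4.45 to 73.1 ± 3.86 CPM (log2 fold change 0.19, adjusted p = 0.00221, limma). That rise did not pass against R1881 libraries 71 to 75 alone (log2 fold change 0.11, adjusted p = 0.0583, limma). EFNA4 (16.6 against 17.4 CPM) and EFNB1 (4.39 against 5.10 CPM) did not pass the test.

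Divided by transcript length, the 7 ephrins together fell from 180 ± 3.70 to 154 ± 3.39 CPM per kb. EFNA5 made up 36.7% ± 1.40 of the ephrin sum with R1881 and 23.6% ± 1.01 with enzalutamide. EFNA1 went from 22.9% ± 1.6 to 30.6% ± 1.04 and took the first place. EFNB2 held 24.6% and 21.6%, and EFNA3 6.09% and 10.5%. These shares add up to the whole, so a fall in EFNA5 raises the others.

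**Figure D2:**
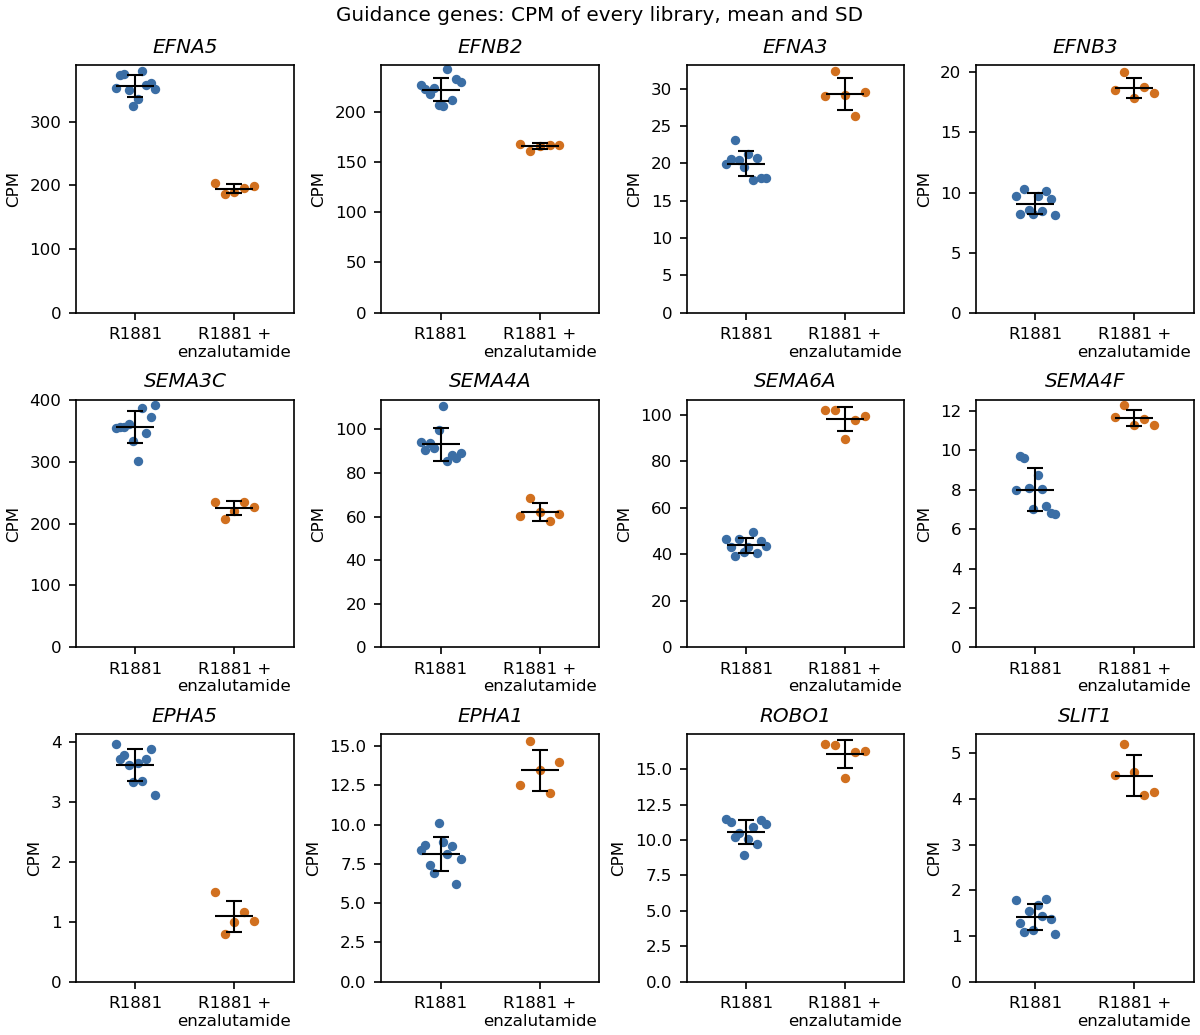
Level of 12 guidance genes in every library (CPM, linear axes from 0), 10 with R1881 in blue and 5 with R1881 + enzalutamide in orange, with the mean and SD as black lines. The groups do not overlap in any of the 12 panels, and EFNA5, EFNB2, SEMA3C, SEMA4A and EPHA5 are the 5 that are lower with enzalutamide.

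Of the 7 EphA receptors tested 2 fell and 4 rose, and of the 4 EphB receptors 1 fell and 1 rose. Over all genes tested, 62.5% were called. EPHB3 and EPHB4 also passed, as higher, once the trend on GC content was removed, a step described below. EPHA6, the Eph gene with the highest mean CPM over all libraries (EPHA3 was above it with enzalutamide), did not pass the test. It ranged from 40.8 to 48.7 CPM with R1881 (median 45.4 CPM) and measured 47.1, 46.3, 45.5, 50.6 and 48.9 CPM with enzalutamide, within or just above the R1881 range (log2 fold change 0.08, adjusted p = 0.113, limma). It passed as higher with TMM factors (0.10, adjusted p = 0.0445, limma), with library totals set to 1000000 (0.18, adjusted p = 0.00101, limma), against R1881 libraries 71 to 75 alone (0.14, adjusted p = 0.0160, limma) and with edgeR (0.13, adjusted p = 0.0103). EPHA1, a receptor of epithelial cells, ranged from 6.22 to 10.1 CPM with R1881, with a median of 8.26 CPM. With enzalutamide it measured 12.5, 15.3, 13.5, 12 and 14.0 CPM. All 5 were above the R1881 range, and the log2 fold change was 0.70 (SE 0.0893, adjusted p = 7.64e-07, limma). EPHA1 overlaps ZYX and an antisense RNA on the opposite strand, and the sources used here do not say whether reads were counted by strand. EPHA3, a receptor best known from neural and haematopoietic development, rose from 37.9 ± 3.21 to 52.2 ± 2.63 CPM without overlap (log2 fold change 0.46, adjusted p = 4.61e-07, limma). EPHA10, which has a kinase domain without activity, rose with overlap from 12.4 ± 1.55 to 16.1 ± 1.51 CPM (log2 fold change 0.38, adjusted p = 0.000440, limma).

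EPHA5, a neural receptor that binds EFNA5, had the lowest fold change of all members, although its level was too low for the rule by which full values are given. It ranged from 3.11 to 3.97 CPM with R1881 (53 to 88 reads). With enzalutamide EPHA5 measured 1.49, 0.791, 1.00, 1.17 and 1.02 CPM (17 to 32 reads). The median fell by 72.3% and the groups were far apart (log2 fold change -1.38, SE 0.0924, adjusted p = 3.74e-11, limma). EPHA7, also a neural receptor of A ephrins, fell from 41.6 ± 3.83 to 32.1 ± 2.54 CPM (log2 fold change -0.37, adjusted p = 5.09e-05, limma), and its groups overlapped by a single pair of close values at 35.2 and 35.3 CPM. EPHA2, the epithelial receptor much studied in carcinoma, was low, at 0.750 to 1.1 CPM with R1881 and 1.30 to 2.51 CPM with enzalutamide (12 to 24 and 29 to 54 reads). These groups did not overlap (log2 fold change 0.87, adjusted p = 7.47e-07, limma).

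Of the EphB receptors EPHB2, a tyrosine kinase that positions cells in the intestinal crypt, fell from 16.7 ± 1.26 to 12.3 ± 1.5 CPM (log2 fold change -0.44, adjusted p = 1.27e-05, limma). Its highest enzalutamide library, at 14.7 CPM, just reached the lowest R1881 library, at 14.5 CPM. EPHB6, which lacks kinase activity, stood at 1.09 ± 0.198 and 1.49 ± 0.335 CPM (log2 fold change 0.31, adjusted p = 0.0228, limma). Its call was lost without enzalutamide replicate 2, 3 or 5 (adjusted p = 0.0854, 0.0723 and 0.0542, limma), with the replicate number as a block (0.0534) and against R1881 libraries 71 to 75 alone (0.194). EPHB4, the receptor of EFNB2 on venous endothelium, stood at 33.7 and 35.7 CPM, and EPHB3 at 13.1 and 13.9 CPM. Neither passed the test.

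SEMA3C, a secreted semaphorin that signals through neuropilins with plexins, was the most abundant semaphorin and fell. It lies at chromosome 7, positions 80742538 to 80922359, and ranged from 301 to 391 CPM with R1881, with a median of 356 CPM. With enzalutamide SEMA3C measured 235, 207, 221, 235 and 227 CPM. All 5 lay under the lowest R1881 library, and the mean fell from 356 ± 25.9 to 225 ± 11.7 CPM (log2 fold change -0.66, SE 0.0493, adjusted p = 2.32e-10, limma). NRP1, the co-receptor of class 3 semaphorins and of VEGF, had the highest level of all members and fell less. It ranged from 505 to 599 CPM with R1881 (median 563 CPM) and measured 517, 450, 460, 490 and 478 CPM with enzalutamide. Only enzalutamide replicate 1 reached into the R1881 range (log2 fold change -0.22, SE 0.0393, adjusted p = 4.90e-05, limma).

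The other class 3 semaphorins were far less abundant than SEMA3C, and none of them fell. SEMA3G, a secreted ligand known from endothelium, ranged from 3.44 to 5.22 CPM with R1881, with a median of 4.34 CPM. With enzalutamide it measured 7.21, 6.19, 6.96, 6.11 and 6.43 CPM, all above the R1881 range (log2 fold change 0.57, SE 0.0858, adjusted p = 6.56e-06, limma). SEMA3B, described as a tumour suppressor on the short arm of chromosome 3, rose from 5.54 ± 1.02 to 7.91 ± 1.40 CPM (log2 fold change 0.48, adjusted p = 0.00104, limma). Its groups overlapped, the highest R1881 value being 8.10 CPM in replicate 6. SEMA3F, its neighbour on that arm and a ligand for NRP2, stood at 19.8 and 20.8 CPM and did not pass the test.

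SEMA6A, a transmembrane ligand of the A-type plexins, gained the most RNA of the members that rose. It ranged from 39.4 to 49.5 CPM with R1881, with a median of 43.2 CPM. With enzalutamide SEMA6A measured 102, 102, 89.7, 97.6 and 99.4 CPM. Each of these was far above the highest R1881 library, and the mean rose from 43.8 ± 3.20 to 98.0 ± 5.01 CPM (log2 fold change 1.15, SE 0.0508, adjusted p = 3.00e-14, limma). The gene, at chromosome 5, positions 116443555 to 116574823, overlaps antisense RNAs on the opposite strand. Its class 6 relative SEMA6D, a ligand of PLXNA1, rose from 0.437 ± 0.122 to 1.71 ± 0.237 CPM without overlap (5 to 12 and 33 to 46 reads, log2 fold change 1.24, adjusted p = 4.08e-09, limma). SEMA6C rose with overlap from 1.52 ± 0.372 to 2.36 ± 0.308 CPM (log2 fold change 0.52, adjusted p = 0.00123, limma). All 3 class 6 genes in the table were called higher. SEMA6D could be tested only because it was higher with enzalutamide, so its call does not bear on the direction of the class.

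SEMA4A, a transmembrane semaphorin known from immune cells and retina, was the other semaphorin that fell. It ranged from 85.6 to 111 CPM with R1881, with a median of 91.1 CPM. With enzalutamide it measured 60.5, 68.7, 62.1, 57.8 and 61.1 CPM, all below the R1881 range (log2 fold change -0.58, SE 0.0527, adjusted p = 5.05e-09, limma). SEMA4F, a class 4 semaphorin described in neurons, ranged from 6.78 to 9.74 CPM with R1881, with a median of 8.00 CPM. With enzalutamide SEMA4F measured 11.7, 12.3, 11.3, 11.6 and 11.3 CPM, so the groups did not overlap (log2 fold change 0.52, SE 0.0827, adjusted p = 1.30e-05, limma). SEMA4G rose from 5.30 ± 0.569 to 7.01 ± 0.348 CPM, also without overlap (log2 fold change 0.38, adjusted p = 0.000239, limma). SEMA4B (16.8 and 19.4 CPM), SEMA4C, the ligand of PLXNB2 (8.58 and 9.83 CPM), and SEMA4D, the ligand of PLXNB1 (22.0 and 22.8 CPM), did not pass the test. The GPI-anchored SEMA7A was at 1.00 and 1.18 CPM and did not pass either. SEMA5A, a transmembrane semaphorin with thrombospondin repeats, was too low to be tested with the other genes. It had 0 to 6 reads in the R1881 libraries and 16, 10, 18, 22 and 27 reads with enzalutamide, or 0 to 0.283 and 0.465 to 1.06 CPM. The groups did not overlap. A two-sided exact permutation test of its CPM gave p = 0.000333, the smallest that 3003 regroupings allow. That test was run for this gene alone without adjustment, and its result restates the missing overlap. Fitted with all genes and no minimum level, SEMA5A had a log2 fold change of 1.12 (adjusted p = 1.83e-07, limma).

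Per kb of transcript, the 15 semaphorins together fell from 131 ± 2.54 to 107 ± 1.79 CPM per kb. SEMA3C held 55.7% ± 3.61 of this sum with R1881 and 43.2% ± 2.81 with enzalutamide. SEMA6A went from 4.89% ± 0.296 to 13.4% ± 0.612, and SEMA4A from 21.9% to 17.9%. SEMA3C thus held a smaller share and SEMA6A a larger one, although SEMA3C stayed the most abundant semaphorin under both treatments. The other secreted class 3 genes held larger shares with enzalutamide, SEMA3B 2.32% after 1.33%, SEMA3F 5.38% after 4.18% and SEMA3G 1.23% after 0.654%. As with the ephrins, these shares add up to the whole, so a fall in SEMA3C raises the others.

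Of the plexins, the semaphorin receptors, 3 of 7 passed the test, and the spread between libraries was wide. PLXNB2, the receptor of SEMA4C and the most abundant plexin, ranged from 79.3 to 159 CPM with R1881, with a median of 99.6 CPM. With enzalutamide PLXNB2 measured 60.2, 95.4, 75.2, 69.6 and 81.2 CPM. The groups overlapped, and the highest library of each was the one with the highest ratio of GC-rich to GC-poor genes, R1881 replicate 6 and enzalutamide replicate 2. The log2 fold change was -0.44 (SE 0.122, adjusted p = 0.00395, limma), and -0.37 without R1881 replicate 6. PLXNB3, a receptor described for SEMA5A, ranged from 9.56 to 23.2 CPM with R1881 (median 13.2 CPM) and measured 6.70, 13.0, 9.14, 8.89 and 9.61 CPM with enzalutamide. Again R1881 replicate 6 and enzalutamide replicate 2 were highest in their groups, and the groups overlapped (log2 fold change -0.56, SE 0.172, adjusted p = 0.00760, limma). The PLXNB3 value was -0.34 against R1881 libraries 51 to 55 alone and -0.78 against libraries 71 to 75 alone (adjusted p = 0.0415 and 0.00181, limma). The labels give these library numbers without a meaning. PLXNB3 also overlaps SRPK3 on its own strand and an antisense RNA.

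PLXNA2, a receptor of SEMA6A, rose from 0.390 ± 0.0773 to 0.865 ± 0.448 CPM (log2 fold change 0.56, adjusted p = 0.00216, limma). It rests on 4 to 12 reads with R1881 and 11 to 31 with enzalutamide, and enzalutamide replicates 1 and 2 (1.26 and 1.44 CPM) were well above the other 3. Without either of these 2 libraries PLXNA2 fell under the minimum level and was not tested, so the call rests on them. PLXNA1, a partner of neuropilins, stood at 27.4 and 25.3 CPM, PLXNA3 at 29.8 and 31.4 CPM, PLXNB1 at 41.1 and 42.3 CPM, and PLXND1, a receptor of endothelial cells, at 0.787 and 0.586 CPM. None of these 4 passed the test. The plexin sum per kb was 30.1 ± 6.0 CPM per kb with R1881 and 25.1 ± 3.94 with enzalutamide. Within that sum PLXNB2 held 52.4% to 55.8% in the R1881 libraries and 45.6% to 48.4% in the enzalutamide libraries, with no overlap. The share of PLXNB1 was 19.2% ± 1.24 and 23.6% ± 1.31.

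**Figure D3:**
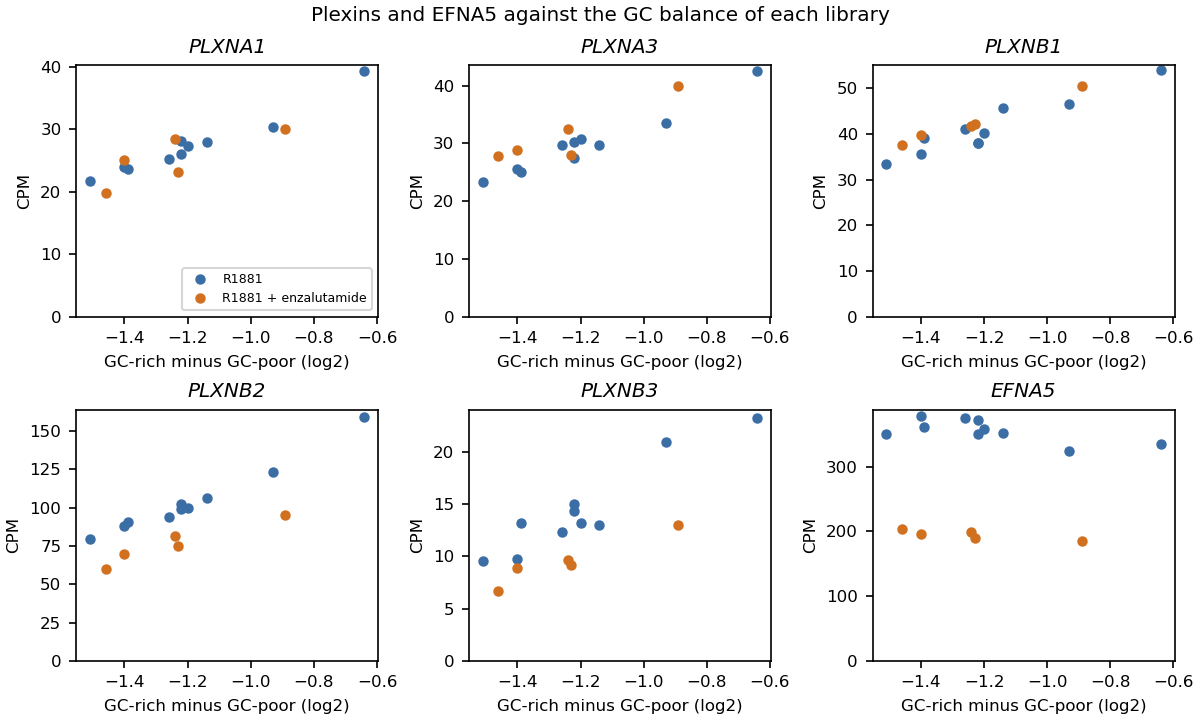
Level of 5 plexins and of EFNA5 (CPM, linear axes from 0) against the log2 ratio of GC-rich to GC-poor genes in each of the 15 libraries, R1881 in blue and R1881 + enzalutamide in orange. The plexins run upwards from left to right in both groups, with R1881 replicate 6 (PLXNB2 159 CPM) at the right end, whereas EFNA5 lies in 2 separate bands at all values.

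R1881 replicate 6 was the highest R1881 library for 15 of the 31 members with a mean of at least 5 CPM. Across these 31 genes, the coefficient of variation over the R1881 libraries went with the GC content of the transcript (Spearman correlation 0.77, a description over genes that share the same libraries). When the trend on GC content was removed from each library, a step chosen after seeing the data, 10 members were lower and 31 higher. Of all 13790 genes in that fit 73.4% were called, 35.7% lower and 37.7% higher. The 11 added calls were EFNA4, EFNB1, EPHB3, EPHB4, PLXNA3, PLXNB1, SEMA3F, SEMA4B, SEMA4C, SEMA4D and SEMA7A, all higher. PLXNB2 was then at -0.37 and PLXNB3 at -0.51 (adjusted p = 8.89e-09 and 6.61e-06, limma). The part of GC content in the values of the members was not tested beyond this.

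The SLIT and ROBO genes in the table were all higher with enzalutamide. SLIT1, a secreted ligand of ROBO receptors, ranged from 1.04 to 1.81 CPM with R1881, with a median of 1.40 CPM. With enzalutamide it measured 4.52, 5.21, 4.59, 4.09 and 4.16 CPM. Its lowest enzalutamide library was above 2 times the highest R1881 library, and its log2 fold change of 1.40 (SE 0.107, adjusted p = 3.70e-10, limma) was the highest of the members at the pseudocount used. SEMA6D stood above it at a pseudocount of 0.1 (1.78 against 1.62), in edgeR (2.03 against 1.70) and in DESeq2 (2.01 against 1.67). SLIT1 lies at chromosome 10, positions 96998038 to 97185959. It overlaps a read-through gene from ARHGAP19 on its own strand and an antisense RNA on the opposite strand. Its counts were small, 18 to 41 reads per R1881 library and 91 to 112 per enzalutamide library.

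ROBO1, a SLIT receptor with a long gene at chromosome 3, positions 78597239 to 79767998, ranged from 8.93 to 11.5 CPM with R1881, with a median of 10.7 CPM. With enzalutamide ROBO1 measured 16.8, 16.7, 14.4, 16.2 and 16.3 CPM. The groups did not overlap, and only replicate 3 stood apart among the 5 enzalutamide libraries (log2 fold change 0.58, SE 0.0633, adjusted p = 7.48e-08, limma). ROBO3, the ROBO protein of commissural axons, ranged from 3.04 to 6.39 CPM with R1881, with a median of 3.88 CPM, and measured 5.68, 8.88, 6.37, 5.03 and 6.70 CPM with enzalutamide. The groups overlapped through R1881 replicate 6 alone, since the next R1881 library was at 4.31 CPM (log2 fold change 0.65, SE 0.134, adjusted p = 0.000285, limma).

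NTN4, a laminin-related netrin of basement membranes, was the only netrin in the table. It ranged from 0.442 to 1.23 CPM with R1881 (median 0.855 CPM) and measured 2.56, 2.14, 2.27, 1.44 and 2.00 CPM with enzalutamide, at 10 to 28 and 32 to 55 reads. The groups did not overlap (log2 fold change 0.92, SE 0.133, adjusted p = 4.15e-06, limma). UNC5B, a netrin receptor that can trigger cell death when unbound, did not pass the test. It ranged from 1.71 to 3.21 CPM with R1881 (median 2.51 CPM) and measured 2.42, 3.44, 2.27, 2.83 and 2.51 CPM with enzalutamide. The groups overlapped, with replicate 2 alone above the R1881 range (log2 fold change 0.09, SE 0.119, adjusted p = 0.517, limma).

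Compared per kb of transcript, the order of the members shifted below the first place. NRP1 led under both treatments, at 99.1 and 84.9 CPM per kb. SEMA3C followed with R1881 at 73.0 CPM per kb and fell to 46.2, where it did not differ from EFNA1 (47.1 ± 2.48) beyond the spread. EFNA5 went from 66.3 to 36.3 CPM per kb, EFNB2 from 44.3 to 33.2, and SEMA4A from 28.7 to 19.1. SEMA6A climbed from place 12 (6.42 CPM per kb) to place 8 (14.4 CPM per kb), and EFNB3 from place 20 to place 14. EPHA5 dropped from place 35 to place 43. The Eph receptors together were at 33.7 ± 0.859 CPM per kb with R1881 and 37.6 ± 1.48 with enzalutamide, so ephrin RNA stood above Eph RNA under both treatments.

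**Figure D4:**
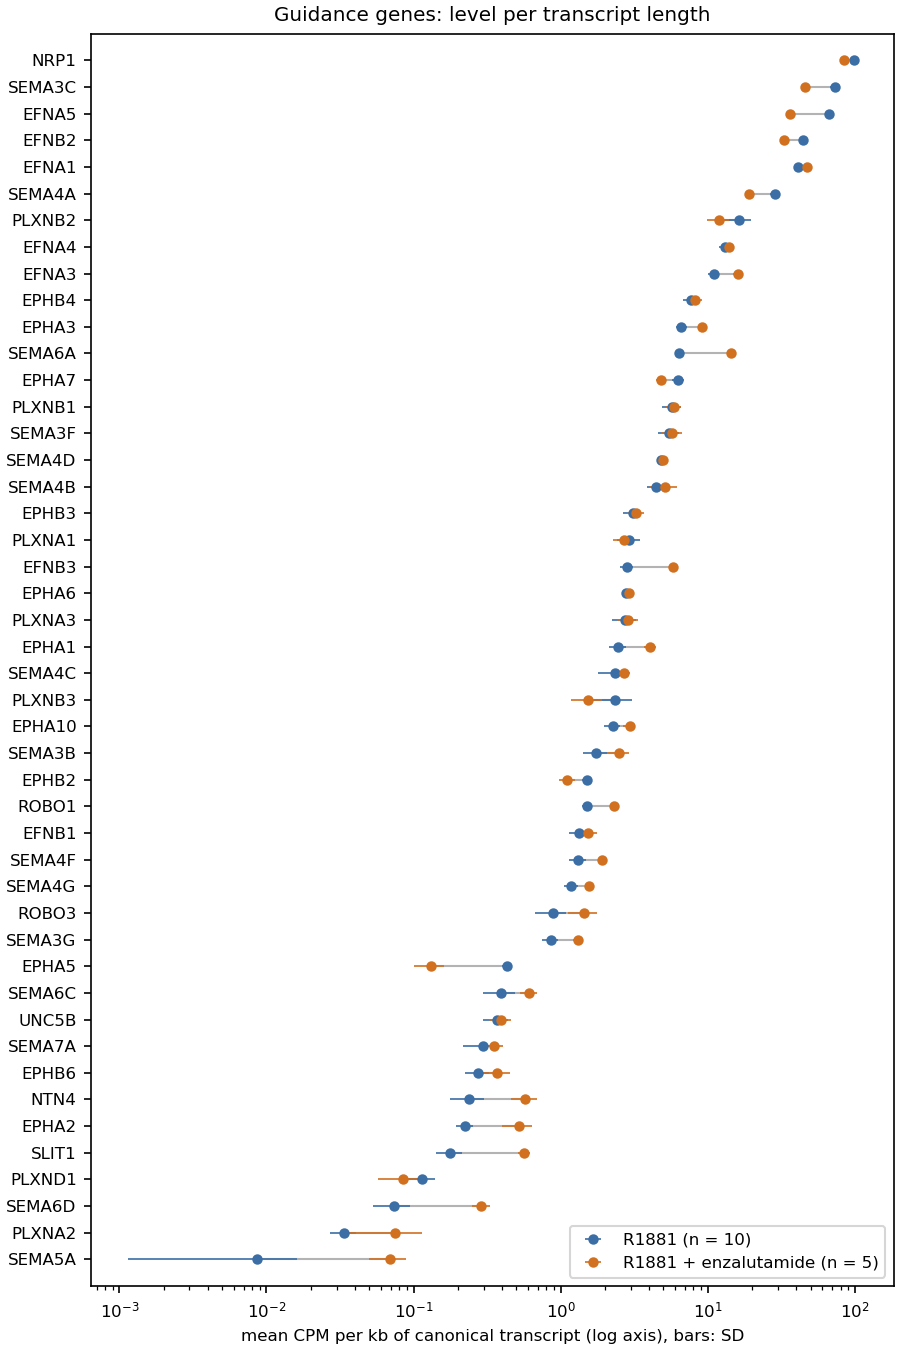
Mean level of all 46 guidance genes per kb of canonical transcript (CPM per kb, log axis) with R1881 (blue, n = 10) and R1881 + enzalutamide (orange, n = 5), bars giving the SD. Levels span NRP1 at 99.1 CPM per kb to SEMA5A at 0.00863 CPM per kb with R1881, and the widest gaps are at SEMA5A, SEMA6D, SLIT1 and EPHA5.

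The proteins that act with these ligands and receptors moved in both directions as well. From a list of 89 co-receptors and intracellular partners, 74 had a row and 71 were tested, of which 27 were lower and 29 higher (38.0% and 40.8%, against 32.7% and 29.8% of all genes tested). Their median log2 fold change was -0.03. FLRT2, MET, CNTN2, FYN and VAV3 had R1881 means of 0.343, 0.278, 0.201, 0.271 and 0.302 CPM. They reached the minimum level only through the enzalutamide libraries, so they could be tested only because they were higher there. They count among the 29 higher genes, and their calls do not bear on the direction of the partners. MICAL1, an actin-oxidizing enzyme that acts below plexins, had the lowest value, falling from 258 ± 36.9 to 26.3 ± 2.90 CPM (log2 fold change -3.27, adjusted p = 2.24e-18, limma). DAPK1, a death-associated kinase described below UNC5 receptors, had the highest, rising from 1.63 ± 0.254 to 23.4 ± 2.19 CPM (log2 fold change 3.49, adjusted p = 1.09e-17, limma). UNC5B itself did not pass the test, as given above.

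The co-receptors and other ligands held 4 lower and 4 higher genes of 9 tested. The higher genes here include FLRT2, MET and CNTN2, tested only because they were higher with enzalutamide. FYN counts likewise among the plexin and neuropilin partners, and VAV3 among the Eph and ephrin partners. NTNG1, a membrane-anchored netrin relative, fell from 15.2 to 5.28 CPM (log2 fold change -1.45), and RGMB, a ligand of neogenin, from 89.7 to 41.8 CPM (-1.09). The plexin and neuropilin partners had 8 lower and 6 higher of 20, with MICAL2, a relative of MICAL1, at -0.74 and DPYSL5, of the collapsin response mediators, at 0.96. The Eph and ephrin partners had 2 lower and 6 higher of 12, and KALRN, a guanine nucleotide exchange factor, rose from 4.28 to 13.2 CPM (log2 fold change 1.52). The ROBO partners had 7 lower and 9 higher of 18. Among these SRGAP3, a GTPase-activating protein that binds ROBO, rose from 8.78 to 33.4 CPM (1.87), PAK1, a kinase that acts on the actin cytoskeleton, rose from 7.62 to 20.6 CPM (1.38), and USP33, a deubiquitinase that binds ROBO1, fell from 164 to 103 CPM (-0.66). The netrin receptor partners had 3 lower and 3 higher of 7. Each partner named here had an adjusted p under 0.05 (limma), and MICAL1, NTNG1, RGMB, DAPK1, SRGAP3, KALRN and PAK1 changed by at least 2-fold.

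**Figure D5:**
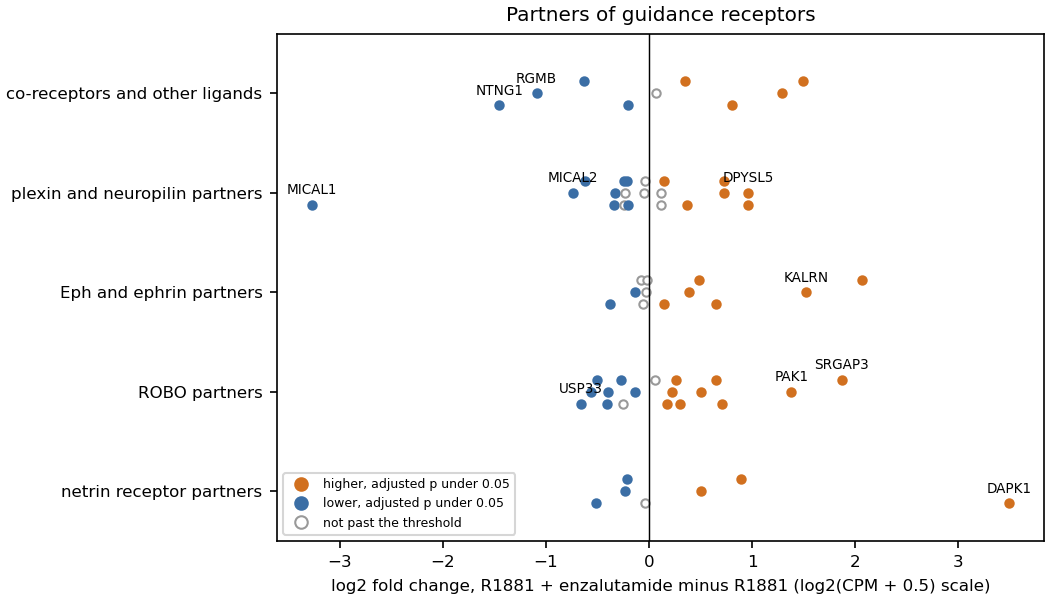
Log2 fold change of 66 partners of guidance receptors in 5 groups (R1881 + enzalutamide minus R1881, log2(CPM + 0.5) scale), 1 line for each group of partners, with the 10 named genes marked. Orange points passed the test as higher, blue as lower and open points did not pass, and MICAL1 at -3.27 and DAPK1 at 3.49 lie outermost.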

How the data were processed

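The table held 10 R1881 and 5 R1881 + enzalutamide libraries of polyadenylated LNCaP RNA, grouped by the sample labels (the study's methods text swaps the 2 numbers). The authors used STAR for mapping to GRCh38 and featureCounts for counting, and deposited their signal as CPM. Their tool versions, annotation, strand setting and scaling rule were not given in the sources used here. Library sums of the deposited signal were 1053406 to 1078567 with R1881 and 985580 to 1008992 with enzalutamide, so the groups did not overlap. The CPM and CPM per kb values keep this deposited scale. With library totals set to 1000000 the log2 fold change of NRP1 was -0.13 in place of -0.22. Of the deposited values, 100% came out as whole reads (tolerance 0.01). No 2 libraries of a group agreed within sampling noise (chi-square per degree of freedom at least 1.62).

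Genes with a mean of at least 0.5 CPM were fitted on log2(CPM + 0.5) with limma 3.58.1 (trended variance, R 4.3.3) without covariates. Benjamini-Hochberg adjustment ran over all 17046 genes tested, with a threshold of 0.05. Fold changes on this scale understate those of low genes. The fit was tested on simulated reads. The design had assumed CPM, and the same test was kept for the deposited signal. The members, the partner list and the marker lists were chosen with earlier results of these data known, the lists from general knowledge. Values of every library were given for members with adjusted p under 0.05, an absolute log2 fold change of at least 0.5 and a mean of at least 5 CPM in either group, and for the most abundant member of each family. Of the partners, the 5 highest and 5 lowest called genes with at least 5 CPM were named. A further group of partners counts in the totals and is not reported here. EPHA5 and other members with values outside this rule were added after their values were seen. Positions, transcript lengths and GC content are from GENCODE 44, and promoters from RefSeq (GRCh38.p14). Alternatives covered pseudocount, filter, scaling, edgeR 4.0.16 and DESeq2 1.42.0 on recovered reads, a replicate block, each R1881 series and each library left out. The library number limits precision, and counting error that of low genes.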

Additional observations from a re-analysis of the deposited data

Results flagged for a closer look

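In 7 of 92 groups of library values, 1 library lay apart from the rest of its group (Dixon's test at the 95% level). For independent groups, chance alone would give about 1 in 20, or 4.60. The groups hold genes measured in the same 15 libraries, so the 7 are not separate events and the 2 numbers cannot be compared directly. With R1881, replicate 6 was the highest library in 5 of the 7. PLXNA1 measured 39.3 CPM there, with the next library at 30.3 CPM. PLXNA3 measured 42.6 CPM against 33.6 CPM in the next library. ROBO3 stood at 6.39 CPM with the next at 4.31 CPM, SEMA3B at 8.10 CPM with the next at 6.04 CPM, and SEMA4B at 21.9 CPM with the next at 18.3 CPM. This library also had the highest ratio of GC-rich to GC-poor genes, as given in the report. With enzalutamide, EFNB2 was lowest in replicate 2 at 161 CPM, with the next library at 166 CPM, and ROBO1 was lowest in replicate 3 at 14.4 CPM, with the next at 16.2 CPM. Both calls held without these libraries.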

How the results depend on the processing

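Of 1256 recomputed member values, none reversed a call, 6 lost it and 32 gained it. Among called members that could be tested, EPHB6 and EFNA1 lost the call in the settings given in the report. PLXNA2 fell under the minimum and was untested without enzalutamide replicate 1 or 2, as were PLXNA2 and SEMA6D at a minimum of 1 CPM. Without 1 library at a time, 29 to 33 members were called (10 to 11 lower, 18 to 23 higher), as were 53 to 57 partners and 10071 to 10877 of all genes. Calls were gained without R1881 replicate 6 for EFNB1, SEMA4B and SEMA4C (log2 fold change 0.23, 0.22 and 0.26), without R1881 replicate 5 for SEMA4C (0.27), without enzalutamide replicate 1 for EFNB1 and SEMA4B (both 0.27) and without enzalutamide replicate 2 for PLXND1 (-0.33). A 2-fold minimum left 5 members (1 lower, 4 higher), 10 partners (3 lower, 7 higher) and 1270 of all genes (714 lower, 556 higher). Among these, the member SEMA6D and the partners MET, CNTN2 and VAV3 could be tested only because they were higher with enzalutamide. Removal of the trend on GC content, added after seeing the data and possible for the 80.8% of genes with a known GC content, gave 41 members (10 lower, 31 higher) and 10122 of 13790 genes (73.4%). The other settings gave 28 to 35 members. On the recovered reads, edgeR called 10744 genes and DESeq2 10552. The replicate number as a block gave 29 members (10 lower, 19 higher), 53 partners and 10043 genes, and EPHB6 was the 1 member that lost its call. Libraries with the same number correlated by -0.11 to 0.13 over 12164 genes, none best with its own number, so the numbers do not pair the libraries. Library totals set to 1000000 moved the median of all genes from -0.01 to 0.075 (log2) and gave 35 members. The R1881 series and the treatment cannot be separated by a batch term, because no enzalutamide library belongs to either series.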

Other observations

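The ephrin-A genes EFNA4, EFNA3 and EFNA1 lie next to each other on chromosome 1 (GRCh38), at 155063737 to 155069553, 155078837 to 155087538 and 155127876 to 155134899. Their log2 fold changes were 0.07, 0.54 and 0.19, and EFNA4 did not pass the test (limma). On chromosome 3, SEMA3F at 50155045 to 50189075 and SEMA3B at 50267558 to 50277546 had log2 fold changes of 0.07 and 0.48, with SEMA3B alone past the threshold. Whether the genes of either cluster differ from each other was not tested.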
